A study of Homo sapiens with 6 samples.

Results

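The genes described here are the activators, the receptor and the inhibitors of the plasminogen system, measured in Caco-2 cells with and without silencing of SDC1, which encodes the heparan sulfate proteoglycan syndecan-1. Of 7 genes listed by name (PLAT, PLAU, PLAUR, PLG, SERPINE2, SERPINB2 and SERPINF2), 6 had at least 1 probe set that carried the symbol of that gene and no other, 12 probe sets in all. They stood among 19775 genes and 54613 probe sets tested. No probe set carried the symbol SERPINB2 in the annotation used, and this inhibitor was not analysed here. Caco-2 is an established human colorectal adenocarcinoma line. In each group 3 arrays were hybridised with total RNA. The control group had been transfected with a negative control siRNA and the other group with an siRNA against SDC1. Neither the time after transfection nor the siRNA sequences are stated in the sources used here.

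Plasminogen, the product of PLG, is an inactive precursor made mainly by the liver and carried in plasma. Tissue plasminogen activator (PLAT) and urokinase (PLAU) cleave it to plasmin, a broad protease that dissolves fibrin, degrades matrix proteins and activates other proteases. Urokinase acts largely at the cell surface, held by its glycolipid-anchored receptor PLAUR, and serpins that trap either activator or plasmin itself keep the cascade in check. In the colon, urokinase and its receptor are best known from tumours and wound edges, while tissue plasminogen activator is best known as a product of endothelium.

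The values were log2 signals centred on the median of each probe set over the 6 arrays, so a value of 0 is the middle of the 6 arrays and not the absence of signal. Differences between the groups can be read from such values, whereas levels of different genes cannot be set against each other. A rough brightness was recovered from the step in which the numbers had been stored, and each probe set was placed in a class of 8 to 16, 4 to 8 or below 4 on the log2 scale. This is not a detection call, and the classes were not checked against another measure of intensity. A gene's value is the mean of its probe sets in its brightest class, so it depends on the classes where probe sets differ. Every difference below is SDC1 siRNA minus control on the log2 scale, with its standard error from the limma fit.

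For the urokinase receptor and its ligand, sequence 5' of an annotated start is shown because AP-1 and ETS factors, textbook regulators of both genes, form one of the gene lists below. Windows were taken from RefSeq (GRCh38.p14), where 4 of the 6 measured members had an entry. The first sequence is the 250 bases before the PLAUR start (chr19:43670170-43670419, minus strand), with the AP-1 motif TGANTCA in capitals, and the second is a stretch of 30 bases that begins 57 bases before a PLAU start (chr10:73911075-73911104, plus strand), with the GC box GGGCGG in capitals.
PLAUR: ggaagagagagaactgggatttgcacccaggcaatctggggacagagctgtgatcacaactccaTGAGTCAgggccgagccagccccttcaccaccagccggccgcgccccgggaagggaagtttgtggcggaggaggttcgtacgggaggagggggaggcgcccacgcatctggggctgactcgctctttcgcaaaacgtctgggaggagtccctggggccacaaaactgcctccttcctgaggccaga
PLAU: agggagGGGCGGcgccgGGGCGGgccctga
The PLAUR window held 1 AP-1 match, which begins 186 bases before the start, and no GC box. The whole 250 bases before this PLAU start held 3 GC boxes and no AP-1 match, and the second PLAU window held neither motif. On either strand, TGANTCA was present in 6.57% and GGGCGG in 42.6% of 35116 RefSeq windows of this length. The ETS core GGAA, found in both PLAU windows and in the PLAUR window, was present in 92.7% of all windows. Sequence beyond these windows was not searched, so a motif that lies further from a start would be missed. A match is a run of letters and not evidence of binding.

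The siRNA target was lower in the arrays labelled SDC1 siRNA. SDC1 differed by -0.84 ± 0.08 (1.79-fold lower, limma adjusted p = 0.0238 over all genes), and its 3 values with SDC1 siRNA (-0.62 to -0.34) lay below its 3 control values (0.35 to 0.37). That call did not hold when any 1 array was left out (adjusted p from 0.0615 to 0.326), while the difference then lay between -0.92 and -0.78. Over all genes, 5 passed an adjusted p of 0.05. Markers chosen to check the cell type gave a mixed picture. The epithelial genes CDH1, EPCAM and KRT18 lay in the brightest class and VIL1 and CDX2 in the middle class, but the intestinal genes CDH17, KRT20, FABP1 and APOA1 lay in the class below 4, as did the leukocyte gene PTPRC and the hepatocyte gene ALB. Of the other markers, COL1A1, COL1A2 and VWF lay in the brightest class. Whether the cells or the way the classes were assigned account for this picture was not tested. An unadjusted limma p under 0.05 between the groups, which 10.6% of all genes reached, was seen in 0 of 9 epithelial and intestinal, 3 of 6 fibroblast and muscle, 2 of 3 endothelial, 1 of 2 leukocyte and 0 of 3 hepatocyte markers. The 3 fibroblast and muscle markers lay on opposite sides of 0, COL1A2 at 0.37 and LUM and PDGFRB at -0.62 and -0.24, and 0 of these markers passed the adjusted threshold.

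None of the 6 measured members passed an adjusted p of 0.05, the threshold that 0.0253% of all genes passed, and the lowest member value was 0.218, for PLAT. In 5 of the 6 the difference was above 0, as in 52.1% of all genes, and in 4 of them (PLAT, PLAU, PLG and SERPINE2) each of the 3 SDC1 siRNA arrays lay above each of the 3 control arrays, as in 8.26% of all genes. The same 4 had an unadjusted limma p under 0.05, which 10.6% of all genes reached and 5.43% reached with a higher value. Groups that did not overlap in either direction were seen in 5 of the 6 members and in 16.7% of all genes. SERPINF2, the plasmin inhibitor, was the only measured member with a difference below 0. The median difference was 0.20 over the 6 members and 0.01 over all genes. The members were chosen with earlier results of these data known, so these shares describe them and cannot serve as a test. For each of the 5 members whose groups did not overlap, exact permutation of the group labels gave a two-sided p = 0.1, which is the smallest value that 3 arrays against 3 can give.

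**Figure D1:**
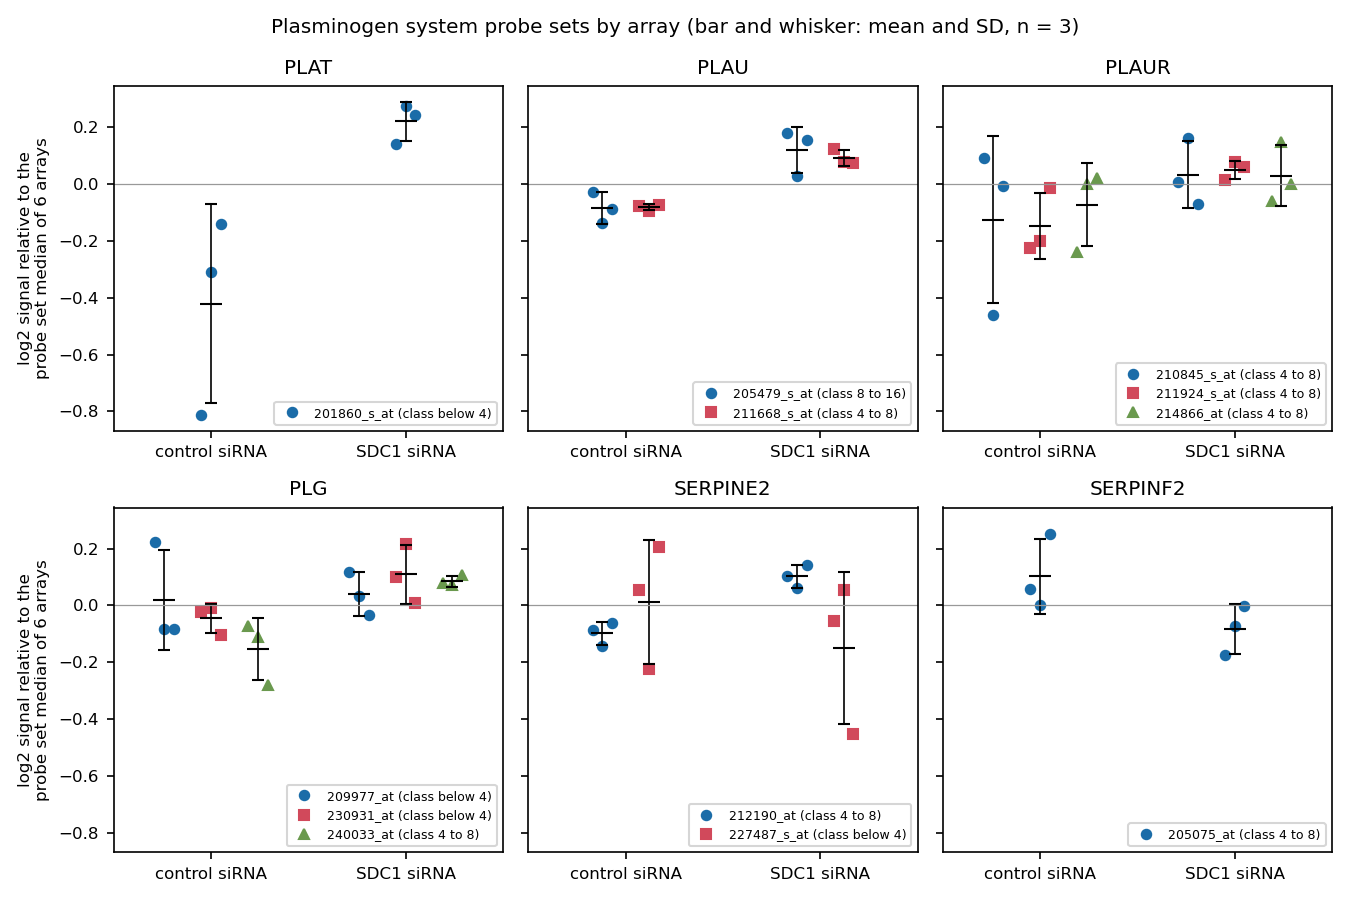
Relative log2 signal of the 12 member probe sets on each array, 1 panel per gene, with points for single arrays, a horizontal bar for the mean and whiskers for the SD of 3 arrays. PLAT shows the widest gap, with control arrays from -0.81 to -0.14 and SDC1 siRNA arrays from 0.14 to 0.28, and the probe sets of PLAUR overlap between the groups except for 211924_s_at.

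PLAT, the tissue-type activator, had the largest difference of the members. On the control arrays its relative log2 signal was -0.81, -0.31 and -0.14 in replicates 1, 2 and 3, and with SDC1 siRNA it was 0.14, 0.28 and 0.24. The 3 SDC1 siRNA arrays lay close together, whereas control replicate 1 lay well below the other controls. The means were -0.42 ± 0.35 (SD, n = 3) and 0.22 ± 0.07 (SD, n = 3). The difference was 0.64 ± 0.15, a 1.56-fold higher signal (95% interval from 0.29 to 0.99, limma adjusted p = 0.218). It was the 16th largest absolute difference of 19775 genes, and the largest of the 4717 genes whose class was below 4. That class had a median absolute difference of 0.08, a 95th percentile of 0.27 and a median within-group SD of 0.13. By unadjusted limma p, PLAT ranked 259 of the 19775 genes. Without control replicate 1 the PLAT difference was 0.45 (adjusted p = 0.274).

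The PLAT value rests on 1 probe set, 201860_s_at, which is of a type that can share sequence with other transcripts and lies in the dimmest class. No other probe set was available to set beside it. The mean of the 3 endothelial markers, whose tissue also makes PLAT, ran from -0.18 to -0.11 on the control arrays and from 0.06 to 0.11 on the SDC1 siRNA arrays. Of these, CDH5 differed by 0.37 ± 0.12, VWF by 0.24 ± 0.09 and PECAM1 by 0.10 ± 0.09, and 0 of the 3 passed the adjusted threshold (limma adjusted p from 0.342 to 0.759). The labels name only Caco-2 cells and no endothelium, and the part of these markers in the PLAT difference was not tested. In bulk RNA a change in the number of cells that make a transcript and a change in transcript per cell cannot be told apart.

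PLAU, which encodes urokinase, was the only member with a probe set in the brightest class. That probe set, 205479_s_at, read -0.03, -0.14 and -0.09 on the control arrays and 0.18, 0.03 and 0.15 with SDC1 siRNA. The groups did not overlap, but control replicate 1 and SDC1 siRNA replicate 2 were only 0.05 apart. The difference was 0.20 ± 0.07 (1.15-fold, 95% interval from 0.04 to 0.37, limma adjusted p = 0.379). The less bright probe set, 211668_s_at, gave nearly the same picture with less scatter, at -0.08, -0.09 and -0.07 on the control arrays and 0.12, 0.08 and 0.07 with SDC1 siRNA. Its difference was 0.17 ± 0.08 when every probe set was tested singly (limma adjusted p = 0.60).

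PLAUR, the urokinase receptor, was measured by 3 probe sets of the middle class. Their mean was -0.13, -0.22 and 0.00 on the control arrays and -0.01, 0.13 and -0.0038 with SDC1 siRNA. The groups overlapped, since control replicate 3 lay above SDC1 siRNA replicates 1 and 3. The difference was 0.15 ± 0.08, with a 95% interval from -0.03 to 0.34 that includes 0 (limma adjusted p = 0.558, exact two-sided permutation p = 0.3). Without control replicate 2 it was 0.10, and without control replicate 3 it was 0.21.

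The PLAUR probe sets did not scatter alike. For 211924_s_at the control values were -0.23, -0.20 and -0.01 and the SDC1 siRNA values 0.01, 0.08 and 0.06, so the groups were separate by 0.03. For 210845_s_at control replicate 2 stood at -0.46, and the other 5 arrays lay between -0.07 and 0.16. For 214866_at control replicate 1 was lowest, at -0.24, and the other 5 arrays lay between -0.06 and 0.15. The differences were 0.20 ± 0.09, 0.16 ± 0.15 and 0.10 ± 0.10 in that order. The last of these was 0.02 without control replicate 1 and 0.04 without SDC1 siRNA replicate 2, and that of 210845_s_at was 0.27 without control replicate 1, 0.09 without SDC1 siRNA replicate 2 and -0.01 without control replicate 2.

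PLG, the plasminogen gene, was measured by 3 probe sets that varied in brightness. The brightest, 240033_at, which stands for the gene, read -0.07, -0.11 and -0.28 on the control arrays and 0.08, 0.07 and 0.11 with SDC1 siRNA. The SDC1 siRNA arrays fell within a narrow band above every control array. The difference was 0.24 ± 0.08 (1.18-fold, 95% interval from 0.06 to 0.41, limma adjusted p = 0.328). The dim probe set 230931_at gave 0.15 ± 0.09, with groups 0.02 apart. The dim probe set 209977_at gave 0.02 ± 0.11, with control replicate 1 (0.22) above all SDC1 siRNA arrays. A probe set that the annotation assigns to PLG and LPA together, 209978_s_at, was left out by the rule of 1 symbol. It went the other way, at -0.20 ± 0.13 (limma adjusted p = 0.734), with SDC1 siRNA replicate 3 at -0.43 and overlapping groups. The mean of the 3 PLG probe sets gave a difference of 0.14 (adjusted p = 0.567). The hepatocyte markers ALB (-0.03 ± 0.07), CYP2E1 (0.07 ± 0.14) and TAT (0.00 ± 0.10) differed by less than their standard errors.

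**Figure D2:**
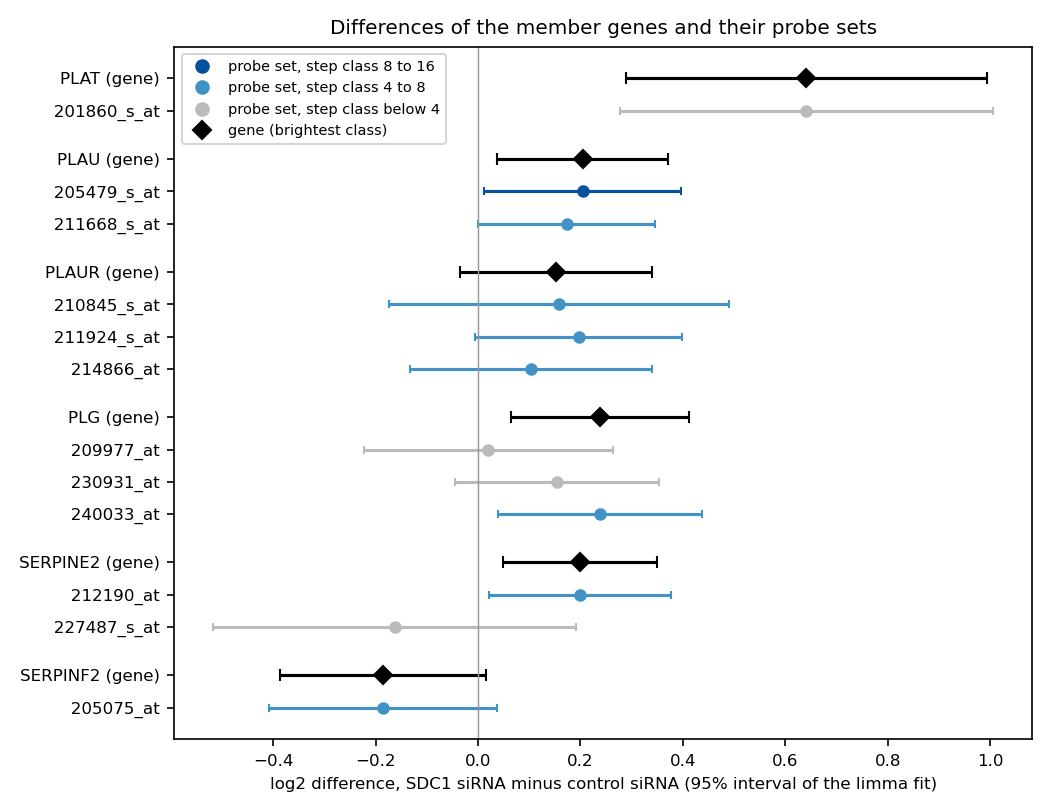
Log2 differences (SDC1 siRNA minus control siRNA, horizontal axis) of the 6 member genes (black diamonds) and their 12 probe sets (circles, coloured by brightness class), with 95% intervals of the limma fit. The intervals of PLAT, PLAU, PLG and SERPINE2 as genes exclude 0, those of PLAUR and SERPINF2 include it, and none of the genes passed the adjusted threshold. The dim SERPINE2 probe set is at -0.16, or -0.01 without SDC1 siRNA replicate 3.

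SERPINE2 encodes protease nexin-1, a serpin that inhibits urokinase, tissue plasminogen activator, plasmin and thrombin and binds glycosaminoglycans such as heparan sulfate. Its brighter probe set, 212190_at, read -0.09, -0.14 and -0.06 on the control arrays and 0.10, 0.06 and 0.14 with SDC1 siRNA. Each group was tight, with an SD of 0.04, and the groups were 0.12 apart. The difference was 0.20 ± 0.07 (1.15-fold, 95% interval from 0.05 to 0.35, limma adjusted p = 0.344). The dim probe set, 227487_s_at, did not follow it. It read 0.05, -0.22 and 0.21 on the control arrays and -0.05, 0.06 and -0.45 with SDC1 siRNA, a difference of -0.16 ± 0.16. That difference was -0.01 without SDC1 siRNA replicate 3, -0.07 without control replicate 3, -0.27 without SDC1 siRNA replicate 2 and -0.28 without control replicate 2. Within arrays the brighter probe set gained 0.36 on the dim one between the groups, with SDs of 0.18 and 0.31 over the control and SDC1 siRNA arrays (exact two-sided permutation p = 0.2). With 3 arrays against 3 this test cannot go below 0.1 and so can call no such difference. With the mean of both probe sets SERPINE2 was at 0.02 (limma adjusted p = 0.966).

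SERPINF2 encodes alpha-2-antiplasmin, the main fast inhibitor of free plasmin. It had 1 probe set, 205075_at, in the middle class, with relative log2 signals of 0.06, 0.0008 and 0.25 on the control arrays and -0.17, -0.07 and -0.0008 with SDC1 siRNA. The groups did not overlap, but control replicate 2 and SDC1 siRNA replicate 3 differed by 0.0017, so the separation rests on nearly equal values. The difference was -0.19 ± 0.09, with a 95% interval from -0.39 to 0.02 (limma adjusted p = 0.508). It was -0.11 without control replicate 3 and -0.24 without control replicate 2.

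The order of the 4 smaller positive differences was not tested. Those of PLG (0.24), PLAU (0.20), SERPINE2 (0.20) and PLAUR (0.15) each had a 95% interval that contained the other 3 values. Whether the PLAT difference exceeds them was not tested. Among the 12 probe sets, 0 passed an adjusted p of 0.05, as was so for all 54613 (0.0%, with 4547 at an unadjusted p under 0.05). At an unadjusted p under 0.05 stood 5 of the 12, against 8.33% of all probe sets, and 8 of 12 had groups that did not overlap, against 14.5%. The count of 5 fell to between 1 and 3 when 1 array was left out, and was 1 (PLAT) without SDC1 siRNA replicate 1 or 3. Probe sets of 1 gene measure the same transcripts and are not independent.

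**Figure D3:**
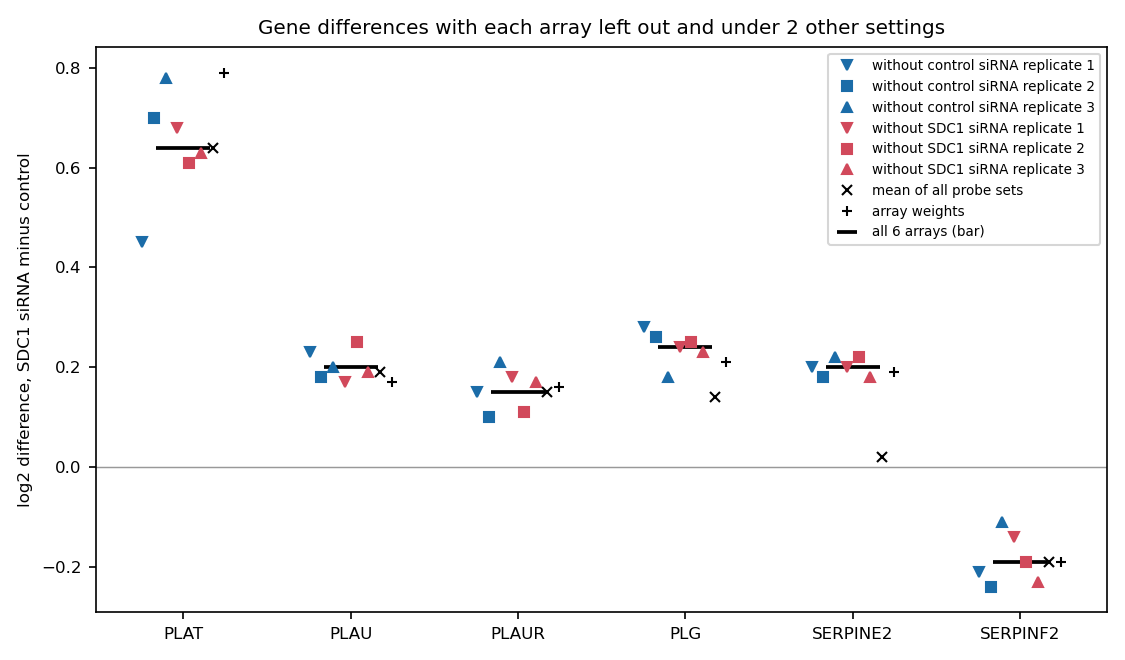
Log2 difference (vertical axis) of each member gene with all 6 arrays (bar), with each array left out (coloured symbols) and under 2 other settings (black crosses). Every value keeps the side of 0 it has with all arrays, PLAT drops to 0.45 without control replicate 1, and SERPINE2 drops to 0.02 with the mean of its probe sets.

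Over the 6 arrays, the genes whose values followed PLAT most closely were PLA2G3 (Pearson r = 0.994), SLC16A8 (0.993) and SLC25A20 (0.988). For PLAU they were F2R (0.993), ZNF232-AS1 (0.991) and PLCXD2 (0.982), and for PLAUR they were CYP2D6 (0.991), ATE1 (0.990) and ABCC8 (0.990). These are descriptions of 6 arrays that fall into 2 groups, picked as the highest of 15053 genes of the brighter classes. With so few arrays, r above 0.95 was reached by 42 genes for PLAT, 26 for PLAU and 64 for PLAUR. F2R, also known as PAR1, the thrombin receptor that other proteases can cleave, differed by 0.34 ± 0.08 (limma adjusted p = 0.22).

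Genes around the members were described in 9 lists of 119 genes, of which 113 were measured here. None of the 113 passed an adjusted p of 0.05 in either direction, and 20 of them (17.7%, against 10.6% of all genes) stood at an unadjusted limma p under 0.05, 13 higher and 7 lower with SDC1 siRNA. Groups did not overlap in 32 of the 113 (28.3%, against 16.7% of all genes). The median difference was 0.04. The lists were chosen with earlier results of these data known, so these shares are a description and cannot serve as a test.

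Among the other inhibitors of plasminogen activators or plasmin, 0 of 9 passed, 8 were above 0 and 1 below, and the median was 0.11. SERPINI1, or neuroserpin, an inhibitor of tissue plasminogen activator, read -0.26, -0.14 and -0.28 on the control arrays and 0.18, 0.14 and 0.42 with SDC1 siRNA. Its groups were 0.28 apart, about as far as those of PLAT. The difference was 0.47 ± 0.09 (1.39-fold, limma adjusted p = 0.147), from 1 probe set of the middle class. SERPINB8, an inhibitor of furin-type and trypsin-like proteases, was at 0.16 ± 0.07. SERPINA5, the protein C inhibitor, which also traps urokinase, was at 0.27 ± 0.13, but its control replicate 3 stood at -0.54, and without that array the difference was 0.11 (0.40 without control replicate 2).

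Of 9 proteins that bind plasminogen at the cell surface, 0 passed, with 6 above 0 and 3 below (median 0.03). PLGRKT, a membrane receptor that binds plasminogen through a terminal lysine, read 0.22, 0.08 and 0.19 on the control arrays and -0.10, -0.10 and -0.08 with SDC1 siRNA. All SDC1 siRNA arrays lay below all controls, and the difference was -0.26 ± 0.07 (limma adjusted p = 0.261). S100A10, the plasminogen-binding partner of annexin A2, was at -0.13 ± 0.09 with overlapping groups (-0.06 without control replicate 2 and -0.08 without SDC1 siRNA replicate 1), and KRT8 was at 0.09 ± 0.07.

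Of 10 proteases that activate urokinase or plasminogen, 0 passed, with 7 above 0 and 3 below (median 0.09). TMPRSS4, a transmembrane serine protease, lay between -0.16 and -0.10 on the control arrays and between 0.10 and 0.16 with SDC1 siRNA, a difference of 0.26 ± 0.06 (limma adjusted p = 0.221). F12, coagulation factor XII, was at 0.27 ± 0.11, or 0.15 without control replicate 2, which stood at -0.41, and the lysosomal protease CTSB was at -0.15 ± 0.07. Among 10 serpins and other protease inhibitors of the epithelial surface, 0 passed, 4 were above 0 and 6 below (median -0.04). SERPINB9, the granzyme B inhibitor, was at -0.31 ± 0.07 with separate groups (limma adjusted p = 0.211). SLPI was at -0.13 ± 0.10 and SERPINB1, an inhibitor of neutrophil proteases, at -0.11 ± 0.09, each with overlapping groups. Leaving out 1 array brought each of them to -0.03, control replicate 3 for SLPI and control replicate 2 for SERPINB1, and SLPI was at -0.20 without control replicate 2. Averaging all its probe sets put SERPINB1 at -0.07.

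Of 16 partners and clearance receptors of the urokinase receptor, 0 passed, with 13 above 0 and 3 below (median 0.04). VLDLR, an endocytic receptor that takes up complexes of urokinase with its inhibitors, was at -0.44 ± 0.07, with controls from 0.16 to 0.29 and SDC1 siRNA arrays from -0.26 to -0.16 (limma adjusted p = 0.103). The EGF receptor EGFR was at 0.20 ± 0.07, or 0.11 with the mean of its 9 probe sets, and ITGA3, an integrin subunit that associates with PLAUR, was at 0.20 ± 0.07, both with separate groups. Of 13 genes of the LY6 and PLAUR domain family, 0 passed, with 8 above 0 and 5 below (median 0.04). LYPD3, the surface protein C4.4A and a structural relative of PLAUR, was at 0.23 ± 0.06. LYPD6, an anchored surface protein linked to Wnt signalling, was at -0.36 ± 0.08, and LY6E at -0.24 ± 0.07 (limma adjusted p from 0.199 to 0.287 for the 3). Members of this family thus lay on either side of 0.

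**Figure D4:**
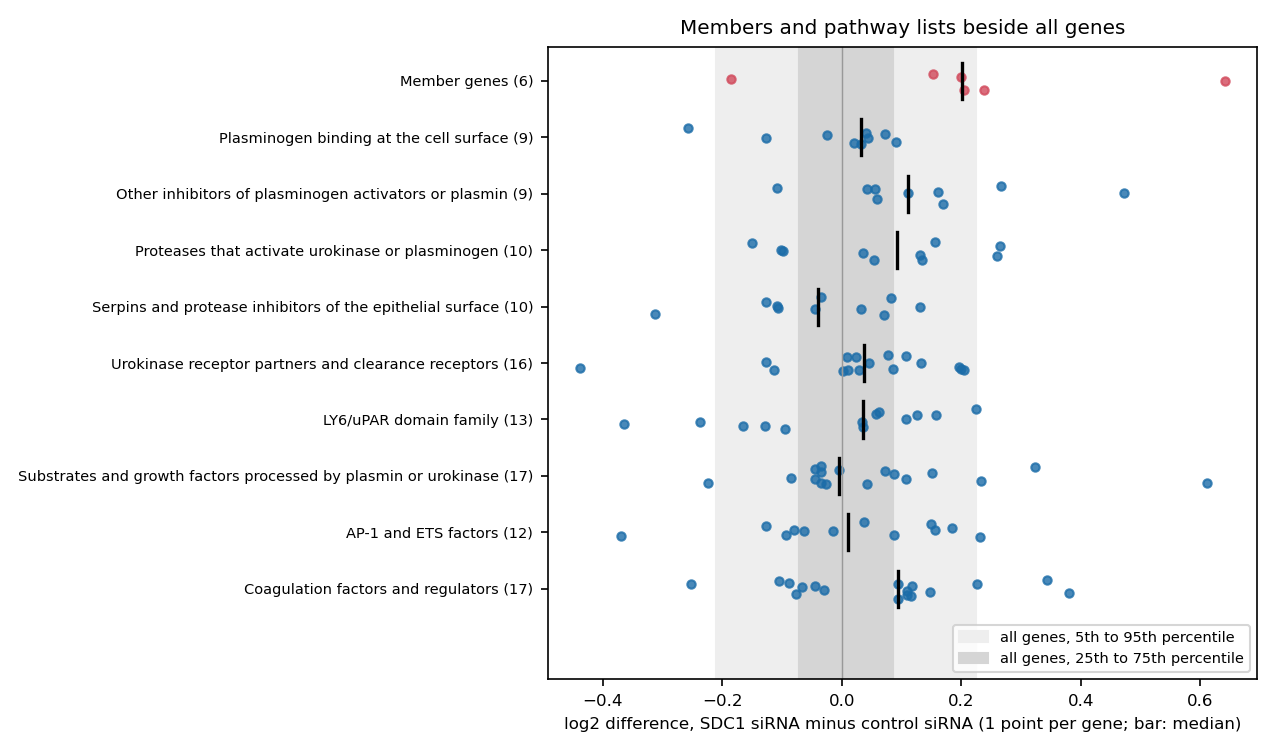
Log2 differences (SDC1 siRNA minus control siRNA, horizontal axis) of the 6 member genes (red) and of the genes of each list (blue, number of measured genes in parentheses), with black bars for medians and grey bands for the 25th to 75th and the 5th to 95th percentile of all 19775 genes. The member median of 0.20 lies right of the list medians, which run from -0.04 to 0.11, and 0 of the genes passed the adjusted threshold. Members and lists were chosen with earlier results of these data known.

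Of 17 substrates and growth factors processed by plasmin or urokinase, 0 passed, with 8 above 0 and 9 below. FN1, which encodes fibronectin, was at 0.61 ± 0.09, with controls from -0.39 to -0.21 and SDC1 siRNA arrays from 0.21 to 0.44 (limma adjusted p = 0.096). Without probe sets of the _x_at and _s_at types FN1 was at -0.04, and averaging its 7 probe sets gave 0.37. LAMB3, a laminin chain, was at 0.32 ± 0.07, and MMP9, a metalloproteinase whose precursor plasmin can help to activate, was at 0.23 ± 0.07. Of 12 AP-1 and ETS factors, 0 passed, with 6 above 0 and 6 below (median 0.01). ETV4 was at 0.23 ± 0.09, or 0.38 without those probe set types, and JUND at 0.15 ± 0.07. FOS was at -0.37 ± 0.15 with overlapping groups, its controls running from -0.03 to 0.46 (limma adjusted p = 0.447). It was at -0.24 without control replicate 3 and at -0.23 without SDC1 siRNA replicate 1.

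Of 17 coagulation factors and regulators, 0 passed, with 10 above 0 and 7 below (median 0.10). PROCR, the receptor that presents protein C for activation, read -0.15, -0.13 and -0.15 on the control arrays and 0.31, 0.13 and 0.28 with SDC1 siRNA. The controls were nearly equal and lay below all SDC1 siRNA arrays, and the difference was 0.38 ± 0.07 (1.30-fold, limma adjusted p = 0.151). F2R followed with the value given above. SERPIND1, heparin cofactor II, a thrombin inhibitor that heparin and dermatan sulfate accelerate, was at 0.15 ± 0.08, with groups 0.01 apart.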

How the data were processed

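Total RNA of 6 Caco-2 samples was hybridised to Affymetrix arrays as biotin-labelled cRNA, per the labels' protocols. The deposited log2 values were made with RMA by the authors, per the submitters' processing notes; its version is not given in the sources used here. In the table the median over the 6 arrays was 0 (tolerance 1e-06) for 54675 of 54675 probe sets, a centring that the sources used here do not state. The log2 scale and the brightness classes were read from the single-precision steps of the values (the classes 8 to 16, 4 to 8 and below 4 took 17.3%, 45.2% and 37.5% of probe sets). Where the arrays straddle a bound the lower class is assigned. Some probe sets may be classed too high by chance, and their number was not estimated. Such a probe set can then stand for its gene, since the gene value uses the brightest class.

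Leaving out 62 control probe sets, 54613 were tested singly, and the 41091 with 1 symbol were combined into 19775 genes, with symbols updated through RefSeq. The comparison of the groups used lmFit and eBayes of limma 3.58.1 (R 4.3.3, group as the only term). Benjamini-Hochberg adjustment was over all genes or all probe sets. The fit had first been tested on simulated data, where calls were required only for planted differences larger than any seen in the members. How often differences of the members' size would be called is not given here. The members and lists were chosen with earlier results of these data known. The text names every member, SDC1, the 3 genes of each list with the lowest p, and the 3 genes most like PLAT, PLAU and PLAUR; markers were named beside them. The alternatives left out each array in turn, added a replicate block or array weights, repeated quantile normalization, centred arrays on medians, used robust variances, combined probe sets in other ways, dropped dim genes or changed the threshold. The titles number the replicates 1 to 3 in each group; nothing says whether they were separate cultures, so p-values measure only how far these arrays scatter, and that scatter may be technical. The number of arrays limits the precision. All arrays held different values, and the sources used here give no batch.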

Additional observations from a re-analysis of the deposited data

How the results depend on the processing

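The count of members past an adjusted p of 0.05 was 0 of 6 genes and 0 of 12 probe sets in every alternative fit run, and 0 at an adjusted p of 0.01. At an unadjusted p of 0.05 the count of genes was 4. Averaging all probe sets of a gene left 2 (PLAT and PLAU), 2 of the 4 genes left without _x_at and _s_at probe sets (PLG and SERPINE2), and between 3 and 5 when 1 array was left out. For probe sets it was 5, between 1 and 3 when 1 array was left out, and 1 with the replicate block. Each member gene kept its side of 0 in all of its alternatives, 12 for PLAT, 13 for PLAU and 14 for each of the other 4. The lowest adjusted p of a member was 0.0894, for PLAT with array weights, where its difference was 0.79. Among the list genes the count past the threshold was 0 except with array weights, where it was 1 (FN1, adjusted p = 0.0362). Reversals were seen for FN1 without _x_at and _s_at probe sets (-0.04), for the PLAUR probe set 210845_s_at without control replicate 2 (-0.01; up to 0.27 without control replicate 1), and for the PLG probe set 209977_at, which turned to -0.03 without control replicate 2, without control replicate 3 and with array weights, to -0.02 without SDC1 siRNA replicate 1, and reached 0.12 without control replicate 1; the cause was not tested. Same-numbered arrays did not deviate together (correlations of -0.01, -0.26 and -0.11 for replicates 1, 2 and 3). With 3 arrays per group this cannot show whether the samples were paired, and the labels do not say. With the replicate block 0 members passed (lowest adjusted p = 0.278), 0 genes passed over the whole table in place of 5, and SDC1 had an adjusted p = 0.0929 (0.083 after quantile normalization again). Over the whole table, the count of genes past the threshold was 39 with array weights, 11 in the brighter classes, 3 with all probe sets averaged and 0 or 1 when an array was left out. The 1 probe set of PLAT lay in the dimmest class, and the filter on dim genes left PLAT without a value.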
